A study of Sus scrofa with 80 samples.

Results

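The testes of 9 young boars were compared with the hypothalamus, adenohypophysis, thyroid gland and backfat of the same animals. The 9 testis arrays were those titled as gonad of a male, out of 80 arrays in the series, and 36 arrays of the 4 other tissues stood against them. The series measured mRNA in 5 endocrine tissues of 16 pigs of 4 breeds with the Affymetrix Porcine GeneChip, 1 array for each pig and tissue, and the ovaries were not used here. Of 24123 probesets 124 controls were left out, and the 6765 genes with a single symbol were each represented by the probeset with the highest mean over the 45 arrays.

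The boars were 2 Large White (LWM02 and LWM04), 2 Duroc (DUM12 and DUM15), 3 Youli (YLM18, YLM19 and YLM20) and 2 Iberian (IBM23 and IBM24). Youli pigs descend from Landrace and from a composite of Chinese and European breeds. No animal was treated, and all had been kept together on the same feed since weaning. They were killed after a fast, at mean ages of 80 to 89 days and mean live weights of 17.4 to 27.2 kg by breed. These breed means cover the pigs of both sexes. By the study's account their oestradiol in plasma was low and typical of pigs before puberty. Of the 9 thyroid arrays, 5 had a title in conflict with their breed or sex field, and the titles were used. Testis, in these arrays, means a piece of the male gonad, and which part of the organ was taken is not given in the sources used here. Values are log2 levels after GCRMA, which corrects for background and normalizes all arrays together, so that 1 unit is a doubling. A probeset with all 9 arrays of a tissue under log2 3 is called near the floor there, and a difference against such a tissue is limited by the floor.

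The testis has an interstitial and a tubular compartment. Leydig cells of the interstitium respond to luteinizing hormone (LH) and turn cholesterol into androgens, and in the boar they also release large amounts of sulphated steroids and oestrogens. In the tubules, Sertoli cells respond to follicle stimulating hormone, secrete inhibin and anti-Müllerian hormone (AMH), and nurse the germ cells, which pass from spermatogonia through meiotic spermatocytes to spermatids that pack their DNA with protamines. AMH falls towards puberty, when the Sertoli cells mature and meiosis begins. A whole-tissue array cannot tell apart fewer cells of a type and less RNA per cell.

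Several arrays had raised levels of genes that were higher in another tissue. Among the 370 genes that were higher in testis than in each other tissue, 36 were at least 2 log2 above the median of the other backfat arrays in the backfat array of YLM19, against at most 2 in any other backfat array and at most 3 in any array of the remaining tissues. In that backfat array the Leydig cell hormone INSL3 was at 7.60, the sperm protein CRISP2 at 8.55 and the protamine PRM1 at 7.55, and the mean over 17 skeletal muscle genes was 12.98, against a median of 3.37 over the 9 backfat arrays. The hypothalamus array of YLM20 had INSL3 at 6.39 and CBR1 at 5.08, although only 2 of the 370 genes were raised there. Conversely, the pituitary hormone GH1 was at 6.52, 5.47 and 6.55 in the testes of LWM02, YLM19 and IBM24 and at most at 3.38 in the other 6 testes, while LHB was at 1.33 to 1.37 in all 9. Pituitary transcripts were higher in some arrays of the other tissues: GH1 was at 14.70 in the thyroid of YLM20, 11.04 in the thyroid of YLM19 and 10.93 in the hypothalamus of YLM19. Of 400 genes that were higher in backfat than in each other tissue, 41 were raised by at least 2 log2 in the thyroid of DUM12 and 19 each in the thyroid of YLM20 and the hypothalamus of IBM23. In the hypothalamus of IBM23 the means over 14 macrophage, 18 antigen presentation and 11 lymphocyte genes were 6.94, 8.66 and 4.23. These were the highest of the 9 hypothalamus arrays, whose medians were 6.08, 6.53 and 2.85. The mean over 12 adipocyte genes was at most 4.96 in any hypothalamus array. Whether the raised genes there came from backfat was not tested. The part of these transcripts in the results was not tested, and the main counts are given with and without these arrays. The Y-linked EIF1AY was at 8.74 to 10.61 in all 45 arrays.

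In all, 2387 genes (35.3% of 6765) were higher and 1946 (28.8%) lower in testis than in the mean of the 4 tissues at an adjusted p under 0.05 in limma. With at least 1 log2 and an adjusted p under 0.05 against each tissue separately, 370 genes (5.47%) were higher and 92 (1.36%) were lower. Of the 370, 201 had all 9 testes above all 36 other arrays, 141 exceeded every other tissue by at least 2 log2 and 27 by at least 5. Over all 6765 genes, all 9 testes were above all 36 other arrays in 251 genes and below them in 66. In 82 of the 370 the mean of every other tissue was under log2 3. Among the 13930 probesets without a single symbol 517 (3.71%) passed the same rule, and their genes are not named here. Without the backfat array of YLM19 and the hypothalamus array of YLM20, an alternative chosen after the values were seen, 371 genes were higher than each tissue, 360 of them in the main set, and 91 were lower. Without the testes of LWM02, YLM19 and IBM24 the numbers were 328 and 83. Without the 5 hypothalamus and thyroid arrays named for raised pituitary or backfat genes they were 356, of which 353 in the main set, and 85. These settings too were chosen after the values were seen.

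Leydig cell and androgen synthesis genes were among those that stood furthest above all other tissues. INSL3, the insulin-like hormone that drives descent of the testis, had its lowest, median and highest value in testes at 13.88, 14.34 and 14.67, against 1.92 to 7.60 in the other tissues, where the 2 highest arrays were those named above. The difference from the mean of the 4 tissues was 11.98 (SE 0.40, adjusted p = 5.5e-26). The other markers of the tissue were as distinct. CYP17A1, the enzyme that makes androgens from C21 steroids, was at 10.87, 12.12 and 13.59 (lowest, median, highest) in testes, against 2.19 to 4.08 elsewhere. CBR1, a carbonyl reductase that in the pig testis acts on steroids, was at 13.37, 14.14 and 14.30, against 2.29 to 6.02 elsewhere. For neither gene did the testes overlap the other arrays, and the differences were 9.94 (SE 0.17) for CYP17A1 and 11.37 (SE 0.25) for CBR1.

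Genes for successive steps from cholesterol to androgen followed. STAR, which carries cholesterol into mitochondria, was at 10.33, 12.08 and 13.64 in testes and at 2.25 to 3.16 elsewhere. CYP11A1, which cleaves its side chain, was at 10.57, 12.09 and 13.04 in testes and at 2.03 to 2.18 elsewhere, near the floor in all 4 other tissues. STAR, CYP11A1, CYP17A1 and INSL3 all had their lowest testis in LWM02. SCARB1, the receptor that takes up cholesterol from lipoproteins, was at 10.75 ± 0.93 in testis and 9.19 ± 0.87 in backfat (SD, n = 9 each), and some backfat arrays reached the testes. The sulphotransferase SULT2A1 was higher by 9.90 (SE 0.16), and HSD11B2, which inactivates cortisol, by 7.28 (SE 0.18).

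Of the 29 symbols on the list of Leydig cell and androgen synthesis genes 24 were measured, of which 15 were higher in testis than in each tissue, 3 were lower than the mean of the tissues (HSD17B12, HSD11B1 and TSPO) and 6 were not called. The median difference over the 24 was 3.56, against -0.01 over all genes. All gene lists used here were chosen with earlier results of these data known. Their counts and medians thus describe the genes and are not a test. Each list should be read beside all 6765 genes: 35.3% were higher and 28.8% lower than the mean, and 5.47% higher than each tissue. Besides those above, HSD3B1, POR, CYB5A, FDX1, FDXR, HSD17B4 and AKR1CL1 were higher than each tissue, by 1.76 (POR) to 7.42 (AKR1CL1) against the mean. The aromatase gene CYP19A1 was not called, with a difference of -0.06, nor were CYP19A3, SULT1E1, AKR1C1, SRD5A2 and CYB5B.

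The LH receptor gene LHCGR was at 9.38, 10.20 and 11.98 in testes and at 2.22 to 7.71 elsewhere. Its highest value outside the testis was in the backfat of LWM04, an array that had no rise of other testis genes (1 of 370 at least 2 log2 above the other backfat arrays). MRAP, the accessory protein of melanocortin receptors, was at 7.18, 9.21 and 10.44 in testes and at most at 4.13 elsewhere, and its difference was 6.78 (SE 0.23).

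**Figure D1:**
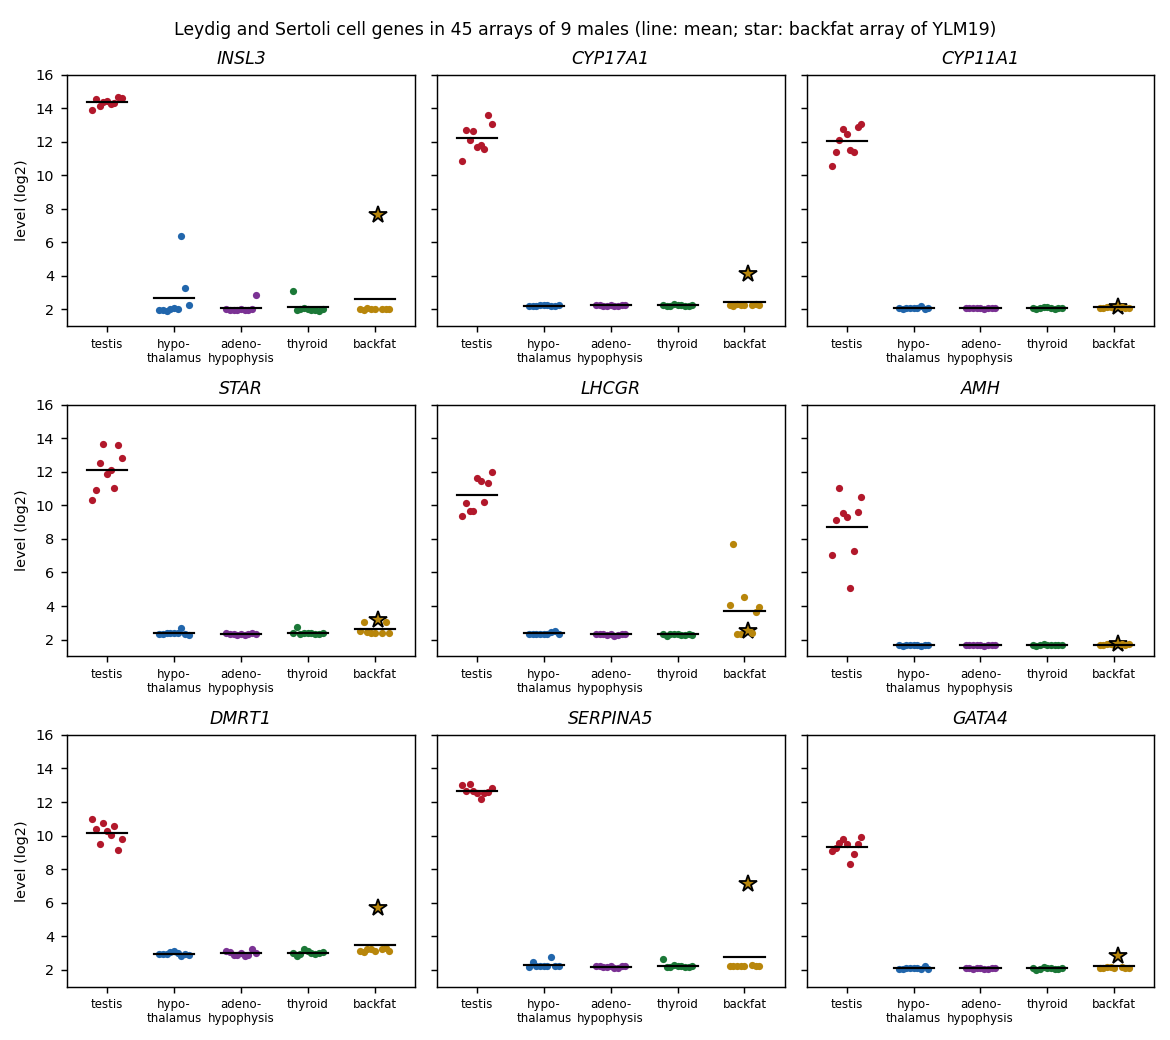
Log2 level of 9 Leydig and Sertoli cell genes in each of 45 arrays, with the testis at the left, 9 arrays for each tissue in the order of the animals and a line at the mean. The 9 testes lie above all other arrays in each panel; the star marks the backfat array of YLM19, which is raised in INSL3, CYP17A1, DMRT1 and SERPINA5 but not in AMH or CYP11A1.

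Many Sertoli cell genes were high in testis as well. INHA, the inhibin alpha subunit, was at 8.41, 10.15 and 10.98 in testes, against 1.49 to 2.52 elsewhere, a difference of 8.34 (SE 0.13). DMRT1, which keeps the male fate of the gonad, was at 9.12, 10.28 and 11.02 in testes, against 2.82 to 5.68 elsewhere. SERPINA5, an inhibitor of serine proteases of the male tract, was at 12.20, 12.67 and 13.08 in testes and at 2.11 to 7.11 elsewhere. The 9 testes were close to each other in SERPINA5 (SD 0.26) and in FATE1 (SD 0.36), an adult and fetal testis antigen, which was higher by 8.55 (SE 0.21).

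AMH, which regresses the female ducts, ran over a wider range. It was at 5.07 in YLM19, 7.07 in LWM02 and 7.27 in YLM20, and at 9.10 to 11.05 in the other 6 testes, against 1.63 to 1.72 in all other tissues (difference 7.05, SE 0.30). The lowest testis was thus still above every other array. FSHR, the receptor of follicle stimulating hormone, was at 4.62, 4.97 and 7.08 in testes and at 2.40 to 2.61 elsewhere, near the floor. SOX9, the factor that acts after SRY in testis formation, was at 5.09, 5.76 and 6.03 in testes and at 2.33 to 4.95 elsewhere, and SRY was near the floor in every array (1.97 to 2.15 in testes).

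Of 26 Sertoli cell symbols 18 were measured: 13 were higher than the mean of the tissues, 9 of them higher than each, 2 were lower (INHBA and TF) and 3 were not called, with a median difference of 2.83. Of 13 measured transcription factors of the gonad 10 were higher than the mean, 8 of them than each tissue, with a median of 3.92. GATA4 and GATA6, zinc finger factors that act on steroidogenic promoters, were higher by 7.21 (SE 0.09) and 5.20 (SE 0.18), and WT1, needed to form the gonad, by 4.74 (SE 0.13). LHX9, a homeobox factor of the early gonad, was at 4.68, 5.52 and 6.32 in testes and at 2.28 to 4.28 elsewhere, with no overlap. Of 9 measured genes of granulosa cells and oocytes, FOXL2 and zona pellucida genes among them, 7 were not called, and FST and GDF9 were lower. FOXL2, BMP15, ZP2, ZP3, ZP4, CYP19A1 and FST were near the floor in the testes.

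Among the other genes with the largest differences, LOC100623656, to which the annotation gives no name, was at 11.72, 13.11 and 13.95 in testes and at 1.94 to 5.22 elsewhere. GLB1L3, a member of the beta-galactosidase family, was at 9.16, 11.96 and 13.31 in testes and at 1.86 to 7.93 elsewhere. The value of 7.93 was the backfat array of YLM19, and the next highest array was at 2.04. PLAC1, first described in placenta, was higher by 6.02 (SE 0.18) and PDZK1IP1, a small membrane protein, by 5.90 (SE 0.22), with no overlap between the groups.

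Transcripts of meiotic and haploid germ cells divided the testes. PRM1, the protamine that replaces histones in spermatids, was at 9.24 in LWM02, 12.03 in YLM19 and 11.93 in YLM20, whereas the other 6 testes were at 2.33 to 2.49, the level of the other tissues (2.32 to 7.55, or at most 3.10 without the backfat of YLM19). PRM2, the transition protein TNP2, the outer dense fibre gene ODF1, TCP11 and the glycolytic kinase PGK2 had the same 3 testes high, at 6.73 to 10.05, and the other 6 at 1.98 to 2.51. All 6 genes passed the test against each tissue over all 9 animals, with differences from the mean of 1.82 (TCP11) to 2.73 (PRM1, SE 0.75, adjusted p = 0.002). Each of the 6 lost that call when LWM02 or YLM20 was left out, and PRM1, TNP2 and TCP11 also without YLM19. Without the testes of LWM02, YLM19 and YLM20, an alternative added after the values were seen, the differences were -0.08 for PRM1, -0.05 for PRM2, -0.06 for TNP2, -0.03 for ODF1, -0.02 for TCP11 and -0.03 for PGK2, and none was called.

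A second set of genes was graded. CRISP2, a cysteine-rich secretory protein of sperm, was at 11.91 in LWM02, 12.84 in YLM20 and higher still in YLM19, at 7.28 in LWM04 and 6.10 in YLM18, and at 2.59 to 2.73 in the other 4 testes. LDHC, the lactate dehydrogenase of spermatocytes, was at 10.17, 11.36 and 10.39 in the same 3 testes, at 6.96 in LWM04, 5.46 in YLM18 and 3.97 in DUM15, and at 2.14 to 2.27 in DUM12, IBM23 and IBM24. ADAM2, ACRBP, ZPBP and SPA17, proteins of the sperm surface and acrosome, had LWM04 and YLM18 between the 3 highest and the 4 lowest testes. HORMAD1, which acts on unsynapsed chromosomes in meiosis, was at 4.50 to 4.92 in DUM12, IBM23 and IBM24, at 6.94 to 7.88 in DUM15, LWM04 and YLM18 and at 9.05 to 9.87 in the 3 highest. Its lowest testis was above every other array but the backfat of YLM19 (6.46), and it was higher in testis by 4.09 (SE 0.38, adjusted p = 3.3e-12).

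Of 15 measured spermatid genes 13 were higher than the mean of the tissues, and 9 than each, with a median of 1.97; of 7 measured spermatocyte genes 6 were higher, and 4 than each, with a median of 2.59. The number of spermatid genes higher than each tissue was 3 without LWM02, 5 without YLM19, 3 without YLM20 and 6 without the 5 hypothalamus and thyroid arrays, and PRM1, TNP2 and SPA17 lost that call without those 5 arrays. Without the testes of LWM02, YLM19 and YLM20 1 spermatid and 1 spermatocyte gene were higher than each tissue, and CRISP2, ACRBP, LDHC and ADAM2 were no longer so. Only 3 of the 15 spermatid genes, and 4 of the 7 spermatocyte genes, were then higher than the mean of the tissues. The heat shock protein HSPA2 of spermatocytes was at 8.66 to 11.65 in testes but at a similar mean in the hypothalamus (10.04 ± 1.08 in testis and 9.83 ± 0.64 in hypothalamus, SD, n = 9 each). Genes of early germ cells gave little: of 6 measured, ID4 was lower and DDX4, the RNA helicase of germ cells, was higher, by 0.50 (SE 0.18). DDX4 was at 5.42 in LWM02, 3.74 in YLM19 and at most 2.62 in the other 7, and its call was lost without LWM02 (0.18) or without YLM19 (0.41). SPAM1, the sperm hyaluronidase, was at 6.83 in YLM19, 3.03 in YLM20 and at most 2.54 in the other 7, and its call was lost when any of LWM02, LWM04, DUM12, YLM19, YLM20 or IBM23 was left out.

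Some other genes were also highest in the 3 testes with protamine transcripts or near them. AQP8, a water channel, was at 7.93 to 7.96 in LWM02, YLM19 and YLM20, at 5.61 to 7.24 in LWM04, DUM15 and YLM18 and at 1.74 to 2.79 in DUM12, IBM23 and IBM24. The glutathione transferase GSTM3 was at 12.21 to 13.07 in the 3 testes with protamine transcripts and at 9.07 to 10.77 in the others. ALDH1A1, which makes retinoic acid, was at 11.43 to 11.92 in the same 3 and at 5.73 to 10.22 in the others, yet lower in testis than in the mean of the tissues (difference -1.70, SE 0.46, adjusted p = 0.0018). That call was lost without the thyroid arrays (-1.07, adjusted p = 0.0833), without the Duroc animals (-1.14, adjusted p = 0.0763) and without the Iberian animals (-1.01, adjusted p = 0.0869). AMH ran the other way, as given above.

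**Figure D2:**
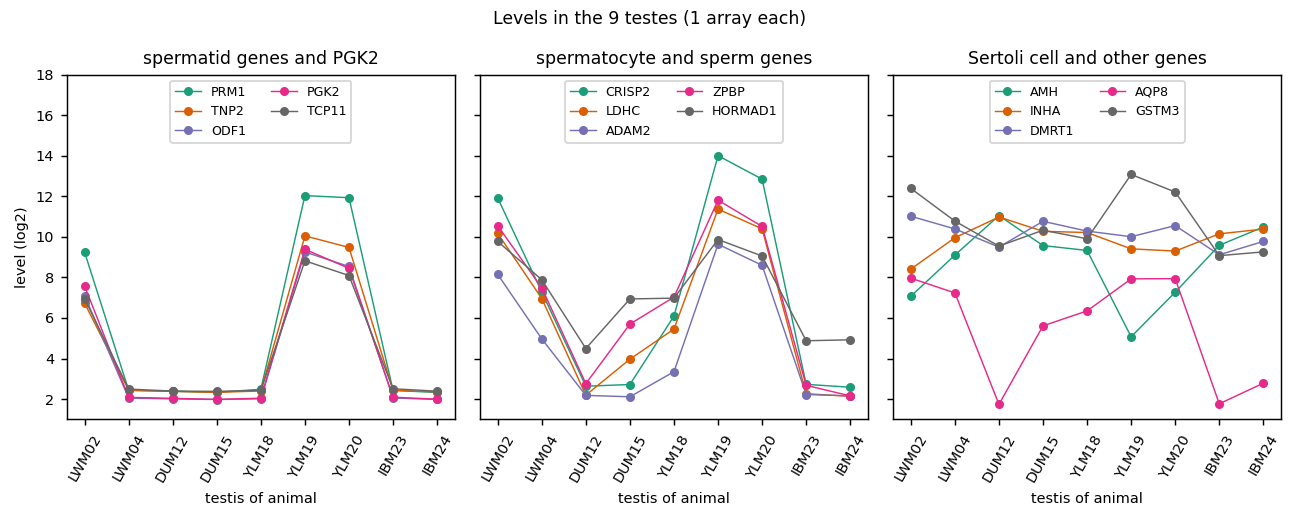
Log2 level of 15 genes in the 9 testes, 1 array for each animal; points of a gene are joined only to guide the eye, and levels should be compared along a line and not between genes. PRM1, TNP2, ODF1, PGK2 and TCP11 are high in LWM02, YLM19 and YLM20 alone, CRISP2, LDHC, ADAM2, ZPBP and HORMAD1 are graded, and AMH, shown with INHA, DMRT1, AQP8 and GSTM3, is lowest in the same 3 testes.

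Cell division genes were mostly higher in testis. Of 34 measured 32 were higher in testis than in the mean of the tissues, 23 of them than each tissue, CCND2 and CDC25B were not called, and the median difference was 2.26. CCNB1, the cyclin of mitotic entry, was at 8.08, 9.26 and 10.42 in testes and at 3.04 to 7.53 elsewhere. TOP2A, which untangles replicated DNA, was at 8.59, 9.90 and 10.59 in testes and at 3.55 to 7.92 elsewhere. CDC20 and PTTG1, which act at anaphase, were higher by 3.69 (SE 0.26) and 3.69 (SE 0.27). In none of these 4 genes did the groups overlap, and the 3 testes with protamine transcripts were the 3 highest in each.

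Genes of oxidant defence and of cholesterol synthesis were mostly higher in testis. Of 28 glutathione and oxidant defence genes 20 were higher than the mean and 6 than each tissue, 2 were lower, and the median was 0.76. GSTA1, which also isomerizes steroid intermediates, was at 10.57, 12.66 and 13.93 in testes and at 2.68 to 8.62 elsewhere, the highest outside being the adenohypophysis of LWM04. With 1 animal left out 4 to 6 genes were higher than each tissue, and the call of GSTM3 was lost when LWM02, LWM04, YLM18 or YLM20 was left out. GSTA4 was at 11.22 ± 0.25 in testis and 10.41 ± 0.20 in hypothalamus, and MGST1 at 13.42 ± 0.38 in testis and 13.68 ± 0.22 in thyroid (SD, n = 9 each). A second GSTA4 probeset was near the floor in all arrays.

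Of 16 measured cholesterol genes 13 were higher in testis than in the mean, 1 than each tissue (SCARB1), and 6 were shared with the hypothalamus, that is, both tissues stood at least 1 log2 above each of the other 3. FDPS, an enzyme of isoprenoid synthesis, was at 10.19 ± 0.62 in testis, 10.20 ± 0.36 in hypothalamus and 7.13 to 8.58 in the means of the other 3 tissues, and ACAT2, which makes acetoacetyl-CoA, was at 9.58 ± 0.66 in testis and 9.71 ± 0.43 in hypothalamus (SD, n = 9). The retinol dehydrogenase RDH11 was higher than each tissue (13.19, 13.43 and 14.21 in testes and a median of 9.91 elsewhere, with no overlap), whereas RBP4, the retinol carrier, was lower than each (1.64, 1.90 and 2.91 in testes and 3.34 to 9.76 elsewhere).

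SLA-DMA stood apart from the other genes of antigen presentation. It encodes the alpha chain of the molecule that loads peptides on MHC class II, and was at 11.85, 12.65 and 13.19 in testes, against 7.85 to 8.91 elsewhere (difference 4.21, SE 0.11). Its partner chain SLA-DMB was lower by a difference of -0.81 (SE 0.19). Of 18 measured MHC genes SLA-DMA was the only one higher than the mean (5.56%), 6 (33.3%) were lower and 11 were not called. The median was -0.23. Over all genes 35.3% were higher and 28.8% lower than the mean. The share higher than each tissue was 5.56% in this list and 5.47% over all genes. For a second probeset of SLA-DMA the difference was -0.35 (adjusted p = 0.3), so that the 2 probesets of this gene disagree. Macrophage genes were lower than the mean of the tissues in 9 of 14, AIF1, C1QA, C1QC and FCER1G by differences of -1.76, -1.60, -1.55 and -1.47, and higher in 2. None of the 14 was lower than each tissue. The mean over the 14 had a median of 5.52 in testes, 5.18 in adenohypophysis, 5.95 in thyroid, 6.08 in hypothalamus and 6.72 in backfat.

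**Figure D3:**
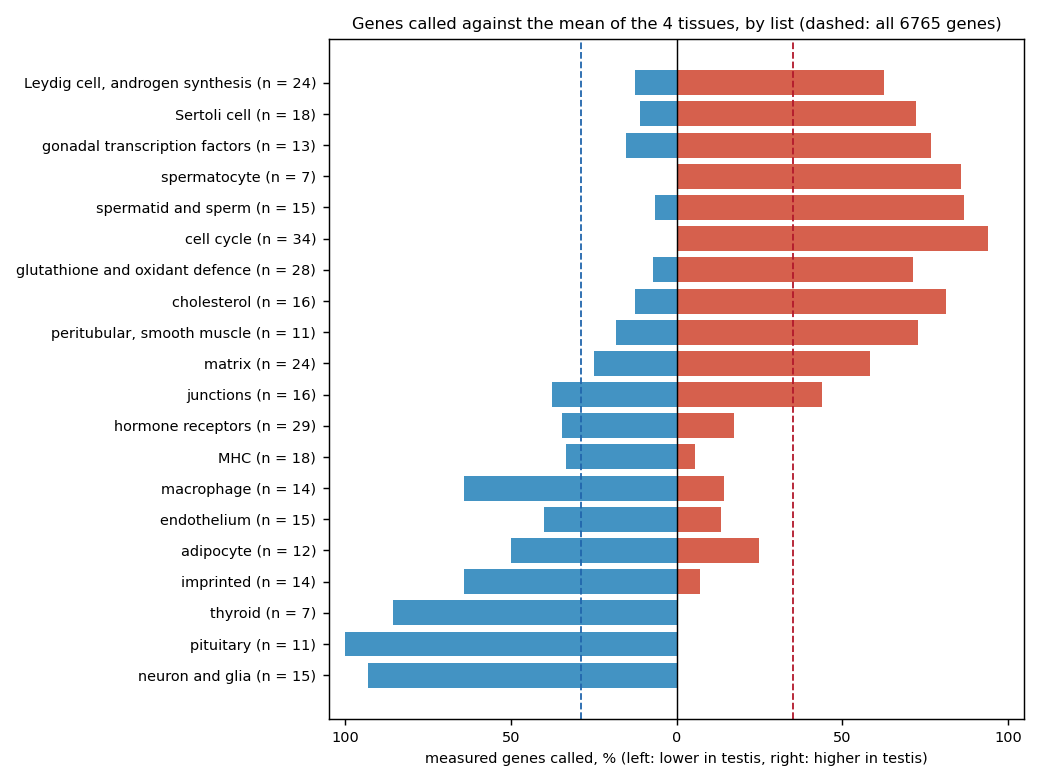
Share of the measured genes of 20 lists that were lower (left bars) or higher (right bars) in testis than in the mean of the 4 tissues at an adjusted p under 0.05; dashed lines mark the shares over all 6765 genes, 28.8% and 35.3%. Cell cycle, spermatid and spermatocyte lists have the largest shares of higher genes, and the pituitary, neuron and thyroid lists the largest shares of lower ones. Without the testes of LWM02, YLM19 and YLM20, 3 of 15 spermatid and 4 of 7 spermatocyte genes were higher.

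The genes lowest in testis were of several kinds. SYBU, which links vesicles to microtubule motors in neurons, was at 1.87, 2.61 and 3.48 in testes and at 4.84 to 10.34 elsewhere, a difference of -5.22 (SE 0.17, adjusted p = 1.5e-26). PFKP, the platelet phosphofructokinase, was at 2.87 to 3.33 in testes and at 5.48 to 8.56 elsewhere. FIBIN, a secreted protein, was at 2.78 to 4.91 and at 5.39 to 10.90. ABLIM3, an actin-binding protein, FGFR2, a receptor of fibroblast growth factors, and C17H8orf4 also had all 9 testes below the 36 other arrays, with differences of -3.37, -3.84 and -4.21.

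For NANOS1, an RNA-binding protein known in germ cells, the testes were at 2.09, 2.61 and 2.99, near the floor, against 4.29 to 8.20 elsewhere. ELOVL6, which lengthens fatty acids, and TMEM25 were lower by differences of -4.76 (SE 0.33) and -3.41 (SE 0.24), with some overlap. Second probesets of FIBIN, NANOS1 and RBP4 were near the floor in all arrays. Of the 92 genes lower than each tissue, 44 had no overlap, against 66 such genes among all 6765, and in 10 the testis mean was under log2 3.

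Imprinted genes were mostly lower in testis than in the mean of the tissues. Of 14 measured 9 were lower than the mean, 1 was higher (IGF2R) and 4 were not called, with a median difference of -1.23. Only NNAT was lower than each tissue. The mean over the 14 genes had a median of 5.96 in testes, 6.52 in thyroid, 6.70 in backfat, 8.38 in hypothalamus and 9.14 in adenohypophysis. NNAT, a membrane protein of neurons and endocrine cells, was at 4.24, 5.45 and 6.13 in testes and at 6.11 to 15.60 elsewhere. DIRAS3, a small GTPase, was at 2.59 to 3.51 in testes and at means of 13.70 in hypothalamus and 13.87 in adenohypophysis, but in backfat its mean was 3.31, so that it was lower than the mean (-7.01, SE 0.23) and not lower than each. MEG3, a long noncoding RNA, was lower than the mean by a difference of -3.90 (SE 0.24) and PEG3, a zinc finger protein, by -2.01 (SE 0.26). PEG3 was, however, higher in testis (mean 5.86) than in backfat (mean 4.01).

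FABP4, the fatty acid binding protein of adipocytes, was at 2.42 to 2.97 in testes and at 3.93 to 15.12 elsewhere. CDH1, the epithelial cadherin, was at 2.11 to 3.20 in testes, the level of backfat, and the growth hormone receptor gene GHR was at 2.49 to 4.78 in testes and at 9.72 ± 0.71 in backfat (SD, n = 9). IGFBP5 and SPARCL1 were lower than each tissue, by -4.08 (SE 0.24) and -2.76 (SE 0.10) against the mean, and the call of IGFBP5 was lost without YLM19.

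**Figure D4:**
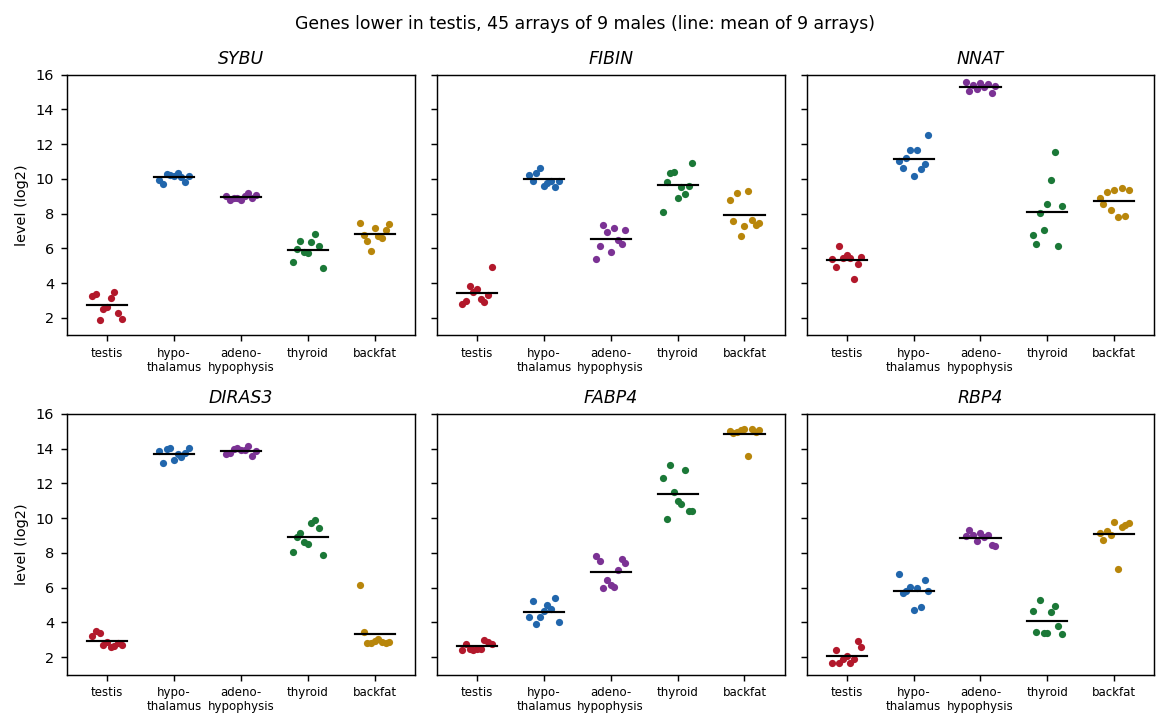
Log2 level of 6 genes lower in testis in each of 45 arrays, with the testis at the left, 9 arrays for each tissue and a line at the mean. DIRAS3 in backfat lies close to the testes, and for SYBU, FIBIN, FABP4 and RBP4 the 9 testes lie below all other arrays.

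Some genes set the testis and 1 other tissue together above the remaining 3, by at least 1 log2 and an adjusted p under 0.05 in all 6 contrasts, without being higher in testis than in each. There were 51 (0.754%) with the hypothalamus, 11 (0.163%) with the adenohypophysis, 37 (0.547%) with the thyroid gland and 73 (1.08%) with backfat. With the hypothalamus, CLDN11, the claudin of Sertoli cell and myelin tight junctions, was at 13.29 ± 0.31 in testis and 13.68 ± 0.47 in hypothalamus (SD, n = 9 each), and ALPL, alkaline phosphatase, was at 7.43 ± 0.58 in testis and 6.79 ± 0.33 in hypothalamus. The secreted chaperone CLU was at 14.50 ± 0.15 in testis and 14.01 ± 0.20 in hypothalamus (SD, n = 9 each). With the adenohypophysis at a mean of 13.52, CLU did not meet the rule and is not among the 51.

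With the adenohypophysis, NR5A1, the steroidogenic factor that also specifies gonadotrophs, was at 7.88 ± 0.55 in testis and 7.31 ± 0.53 in adenohypophysis (SD, n = 9 each), while the other 3 tissues were at means of 2.75 to 2.84. GALP, a galanin-like peptide, and TMEM221 had the same pattern but varied by over 3 log2 among the testes. With the thyroid, AMHR2, the receptor of AMH, was at 3.67 to 7.45 in testes and 6.39 to 9.96 in thyroids, and SLC34A2, a phosphate transporter, and LDHD, the D-lactate dehydrogenase, were also shared, SLC34A2 at means of 6.22 in testis and 6.01 in thyroid and LDHD at 7.52 in testis and 7.18 in thyroid.

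With backfat, the homeobox gene HOXD8 was at 8.49 ± 0.52 in testis and 8.34 ± 0.45 in backfat (SD, n = 9 each), and FBP2, the muscle fructose bisphosphatase, and CIDEA, a lipid droplet protein, were high in both, although FBP2 in backfat reached 12.12 in YLM19. The matrix genes LUM and COL15A1 were at 11.35 and 11.02 in testis and 12.14 and 11.54 in backfat. The smooth muscle genes ACTA2 and MYL9 were higher in testis than in the mean by 1.83 (SE 0.31) and 2.26 (SE 0.20), and their means were 11.25 and 8.26 in testis and 11.89 and 8.68 in backfat. AGT, angiotensinogen, was at 11.98 ± 0.65 in testis, 11.62 ± 0.37 in hypothalamus and 11.87 ± 0.94 in backfat (SD, n = 9 each), and at means of 3.94 in adenohypophysis and 5.21 in thyroid. High in both hypothalamus and backfat, AGT is not counted as a shared gene.

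**Figure D5:**
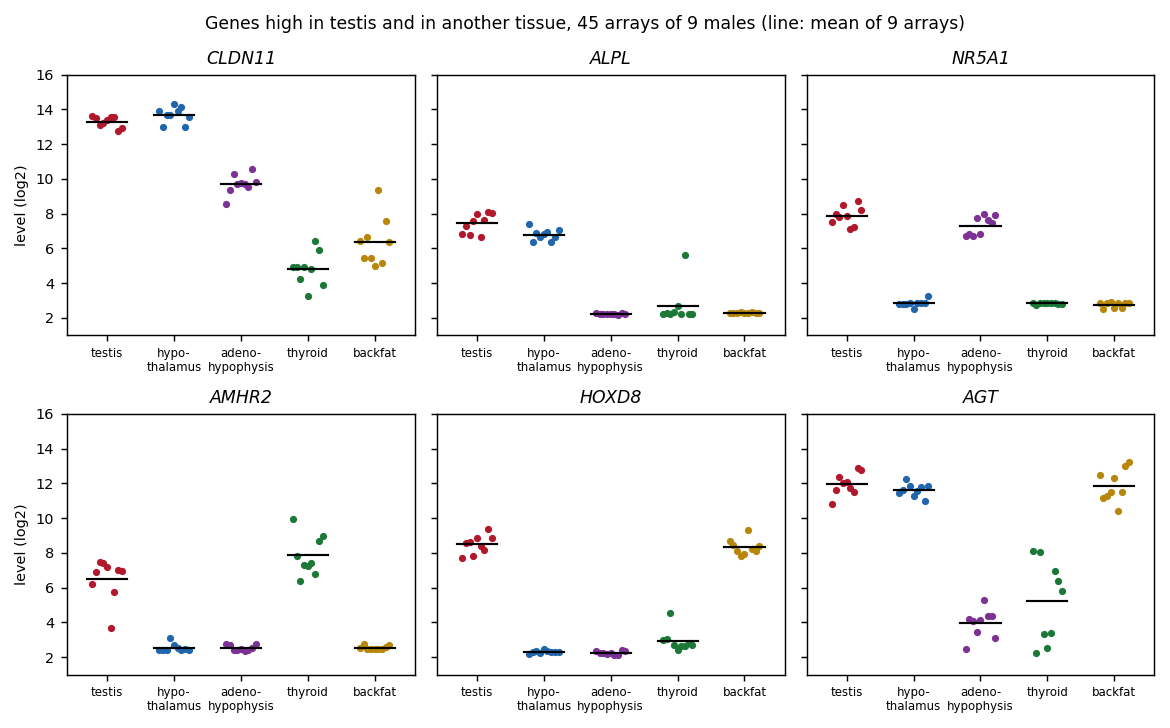
Log2 level of 6 genes high in testis and in another tissue, in each of 45 arrays, with the testis at the left, 9 arrays for each tissue and a line at the mean. CLDN11 and ALPL are shared with the hypothalamus, NR5A1 with the adenohypophysis, AMHR2 with the thyroid and HOXD8 with backfat. AGT is high in both hypothalamus and backfat and is not counted as a shared gene.

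The testes differed from each other in more genes than most tissues did. The SD over the 9 arrays exceeded 1 log2 in 364 genes (5.38%) in testis, against 155 (2.29%) in hypothalamus, 114 (1.69%) in adenohypophysis and 191 (2.82%) in thyroid, while in backfat, with the array of YLM19, it was 412 (6.09%). Of the 370 genes higher than each tissue 89 ranged over more than 3 log2 among the testes and 65 over less than 1. Whether the difference of testis from the other tissues depended on the breed was tested over the 9 animals. By limma's moderated F 0 of 23999 probesets were called, and 2796 were at an unadjusted p under 0.05. With 2 or 3 animals for each breed, 0 calls do not show that the breeds were alike. The study, with its own model, found that the testis varied most between breeds among its tissues. The 3 testes with protamine transcripts were 1 of 2 Large White and 2 of 3 Youli animals.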

How the data were processed

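RNA of 5 tissues was hybridised to 1 Affymetrix Porcine GeneChip for each animal and tissue. The deposited values are log2 levels, which the authors obtained by GCRMA of all arrays together, with GCOS among the tools in the submitters' processing notes. Scan and hybridisation batches are not given in the sources used here.

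The 45 arrays of the 9 males were fitted in limma 3.58.1 (R 4.3.3) with tissue and breed terms, on 23999 probesets after 124 controls were left out, and p-values were two-sided and adjusted by Benjamini-Hochberg over all of them. The platform annotation gave 10069 probesets 1 symbol, 198 several and 13732 none. Tissue, breed and animal came from the titles. A gene was called against each tissue at a difference of at least 1 log2 and an adjusted p under 0.05 in all 4 contrasts. Breed was tested on each animal's difference by limma's moderated F. Script steps were tested on simulated data. Same-numbered arrays come from the same animal. Deviations of the testis array from the tissue mean correlated with the average deviations of the animal's 4 other arrays at r of 0.208 to 0.266. With the arrays of a single tissue the mean r over animals was 0.118 (hypothalamus) to 0.187 (adenohypophysis).

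Genes named were the 20 higher and 10 lower genes with the largest smallest difference, the 4 called members of each of 28 lists with the largest difference, the 3 largest shared with each tissue, the markers, genes that the study names, and Leydig, Sertoli and germ cell genes with separated or widely spread testes. Other list members are named only with their difference. Members and lists were chosen with earlier results of these data known. A planned search for promoter motifs was not run. Replicates are separate animals. The number of arrays limits the precision.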

Additional observations from a re-analysis of the deposited data

Results flagged for a closer look

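In 8 of 109 genes tested, 1 testis lay far from the other 8 by Dixon's criterion, which chance meets in about 1 in 20 groups. The testis of LWM02 was high for DDX4 (5.42) and low for FBP2 (4.65). The testis of YLM19 was high for SPAM1 (6.83) and TG (4.81) and low for AMHR2 (3.67). The testis of IBM24 was high for FIBIN (4.91), GHR (4.78) and FST (2.62).

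Whole arrays stood apart as well. The backfat array of YLM19 had 36 testis genes raised by at least 2 log2, with 27 hypothalamus genes and 10 thyroid genes. The thyroid array of DUM12 had 41 of 400 backfat genes raised and the hypothalamus array of IBM23 had 19. The adenohypophysis array of DUM12 was flagged with only 5 of 400 backfat genes (1.25%) and 2 of 159 thyroid genes (1.26%) raised. The thyroid array of YLM20, with 12 of 136 adenohypophysis genes (8.82%) raised, was not flagged by that criterion. The testis array of YLM19 had 24 of 368 hypothalamus genes, 10 of 136 adenohypophysis genes and 7 of 159 thyroid genes raised by as much, each more than in any other testis. The other testes with protamine transcripts, LWM02 and YLM20, had 11 hypothalamus genes raised each, against 1 to 3 in the testes without them. For adenohypophysis genes LWM02 had 4 and YLM20 2, against 0 to 4, and for thyroid genes both had 2, against 0 to 1.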

How the results depend on the processing

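With the animal as a replicate block in place of breed, 2447 genes were higher and 2004 lower than the mean of the tissues, 369 higher and 92 lower than each, and 173 shared with 1 tissue, against 172 without the block, and the block changed no call of a named gene against each tissue. Leaving out each animal in turn gave 2282 to 2391 higher and 1836 to 1993 lower than the mean, 349 to 386 higher and 84 to 96 lower than each, and 164 to 184 shared. A minimum difference of 2 log2 left 141 higher and 22 lower than each tissue, and no minimum gave 926 and 303. With the thyroid arrays of males chosen by the breed and sex fields, 364 genes were higher than each tissue, 359 of them in the main set. In that setting 93 were lower, 90 of them in the main set. Without the thyroid arrays 355 genes were shared, since only 2 other tissues then had to be exceeded, and TG turned to a difference of 0.39. With array medians set equal, 2266 were higher and 2121 lower than the mean. Without the testes of LWM02, YLM19 and YLM20, SPAM1 turned to -0.0124, as did PRM1 to -0.0841, PRM2 to -0.0489, TNP2 to -0.0592, ODF1 to -0.0329, TCP11 to -0.0224 and PGK2 to -0.0264, while 325 genes were higher than each tissue, 294 of them in the main set. SRY, near the floor, was at 0.00597 without the testes of LWM02, YLM19 and IBM24. Without the hypothalamus arrays of YLM19 and IBM23 and the thyroid arrays of DUM12, YLM19 and YLM20, 2339 genes were higher and 1907 lower than the mean and 176 were shared. These 3 settings were chosen after seeing the data. The breed test gave 0 calls in limma in each setting, with 2136 probesets at an unadjusted p under 0.05 after the filter on low values and 3352 on testis values alone.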

Other observations

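Hormones and markers of the other tissues were mostly lower in testis, as their own tissue enters the mean. All 11 measured adenohypophysis genes were lower, 14 of 15 neuron and glia genes (SNAP25 by a difference of -6.07, MAP2 by -5.26) and 6 of 7 thyroid genes. Of 12 adipocyte genes 6 were lower, ADIPOQ by a difference of -3.93, and 3 were higher.

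Supporting tissue gave mixed lists. Over all genes 35.3% were higher and 28.8% lower than the mean. Of 11 smooth muscle and peritubular genes 8 (72.7%) were higher and 2 (18.2%) lower, with a median of 0.77. Of 24 matrix and basement membrane genes 14 (58.3%) were higher and 6 (25%) lower. Of 16 junction genes 7 (43.8%) were higher and 6 (37.5%) lower, and of 15 endothelial genes 2 (13.3%) and 6 (40%). NECTIN2, which joins Sertoli cells to spermatids, was the junction gene higher than each tissue (2.06, SE 0.10). Of 17 striated muscle genes 2 were higher and 2 lower, of 11 lymphocyte genes 2 were lower and 9 not called, and of 4 red cell genes HBB was higher.

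Of 29 hormone receptors and binding proteins 5 (17.2%) were higher and 10 (34.5%) lower than the mean, with a median of -0.23. LHCGR and FSHR were the 2 higher than each tissue (6.9%, against 5.47% of all genes). Of 12 retinoid genes 2 (16.7%) were higher and 4 (33.3%) lower than the mean, and of 8 epididymis genes 3 (37.5%) and 2 (25%). Over all genes these shares were 35.3% and 28.8%. In the epididymis list ADAM28 was higher than each tissue (3.44, SE 0.17), while CRISP1 was near the floor in testes (2.13 to 2.21). Of the 2 measured Y-linked genes EIF1AY was lower by a difference of -0.72.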
